A study of Homo sapiens with 14 samples.

Results

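The integrated stress response lowers general protein synthesis when a cell runs short of amino acids or accumulates unfolded protein, while the mRNA of the transcription factor ATF4 is translated more. Stress kinases start it by phosphorylating the translation factor eIF2alpha, and ATF4 then switches on genes for amino acid uptake and synthesis, redox defence and, through its target CHOP, cell death. The serine pathway makes serine from the glycolytic intermediate 3-phosphoglycerate, and serine in turn feeds glycine and the folate-bound carbon units used for nucleotides. Several of its enzymes are known ATF4 targets, which ties both sets of genes together. In colorectal tumours this pathway is known as a source of carbon for growing cells.

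The genes followed here are 10 of the 36601 in the single-cell matrices and of the 60624 used in the bulk tables, chosen by symbol and all found in both. ATF4 encodes the transcription factor at the head of the response, and DDIT3 encodes CHOP. Effectors of the response are TRIB3, a pseudokinase that restrains ATF4 and CHOP, CHAC1, which breaks down glutathione, SESN2, an inhibitor of mTORC1, and ASNS, asparagine synthetase. PHGDH and PSAT1 catalyse the first steps of serine synthesis, SHMT2 turns serine into glycine in mitochondria, and SLC7A5 is the leucine transporter of the plasma membrane.

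SW620 and SW480 are human colorectal cancer lines. The study grew SW620 cells as colonies for up to 15 days without passage, in medium with nonessential amino acids and a glutamine dipeptide. In single-cell RNA-seq, cultures named SW620 in the labels carried an empty FLAG vector by the study's description. For the bulk libraries of SW620 the study's text names no vector. SW620-TET2CD cultures overexpressed the catalytic domain of TET2, an enzyme that oxidises 5-methylcytosine in DNA. The sources used here do not say how many clones the TET2CD line holds. Single-cell RNA-seq covered both lines on days 6, 9, 12 and 15 (8 libraries), and bulk RNA-seq covered whole SW480 and SW620 cultures on day 6 and, on day 15, the inside and the outside of colonies of both lines (6 libraries). A strainer separated those cells after enzymatic dissociation, with cells that passed taken as outside. Each line and day, or line and location, was 1 library. The p-values below therefore treat both lines, or 2 days of a stage, as replicates. For the comparison of the lines, the days stand in as replicates in the single-cell data, and the inside and outside of colonies in bulk. None of these p-values carries information on how repeat cultures of 1 line on 1 day vary.

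Of 67056 cell barcodes, 48282 had 200 to 4500 genes, 1000 to 20000 UMIs (1 UMI marks 1 captured RNA molecule) and at most 10% mitochondrial UMIs. Their UMIs were summed per library, 48186195 to 74185723 of them, and scaled to CPM, the usual unit for a count relative to the total of its library. A gene with no UMI could still stand at up to 0.0404 to 0.0623 CPM, the level of 3 counts. Pairs of libraries shared 11 to 31 barcodes, at most 0.440% of the smaller library. TET2 stood at 2.11 to 3.90 CPM in the SW620 libraries and at 40.2 to 107 CPM in those labelled SW620-TET2CD. The summed level of 7 epithelial markers was 9413 to 14040 CPM and that of 8 markers of blood, vessel and connective tissue cells 3.74 to 5.45 CPM on days 6 and 9 and 7.37 to 40.5 CPM on days 12 and 15. Between days 6 and 9 (early) and days 12 and 15 (late) the libraries also differed in other ways. A list of 12 cell division genes summed to 1806 to 2169 CPM early and 236 to 495 CPM late. A list of 12 genes induced by low oxygen summed to 77.5 to 158 CPM early and 540 to 833 CPM late, and a list of 12 genes known to respond to tissue dissociation to 1803 to 2394 CPM early and 2820 to 4321 CPM late.

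Genes of the amino acid branch carry a short DNA element near their start at which ATF4 binds together with a C/EBP protein, and its core letters are TGATGNAA. Because several of the 10 genes moved together, the 300 bases around each start (250 before and 50 after, RefSeq, GRCh38.p14) were searched for these letters on both strands. Windows were found for 9 of the 10 genes, 14 windows in all, and 2 of these genes held the letters. Of all 27305 genes with a window 4.46% held them, and of all 35116 windows 3.62%. The stretches with a match are shown 5′ to 3′ on the strand of the gene, with the match in capitals. In ASNS the match began 68 bases before the start (chr7:97872439-97872506, minus strand), and in CHAC1 it lay on the opposite strand 209 bases before the start (chr15:40953232-40953299, plus strand).
ASNS: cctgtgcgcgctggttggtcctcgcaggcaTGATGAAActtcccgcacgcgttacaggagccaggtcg
CHAC1: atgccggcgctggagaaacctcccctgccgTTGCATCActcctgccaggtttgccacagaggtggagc
Both starts are those of RefSeq windows and lie inside the outer bounds that GENCODE gives these genes. SHMT2 had no window. The other members had no such letters in their windows, which says nothing of elements elsewhere in the genes.

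By Ensembl identifier in the GENCODE annotation of GRCh38, ATF4 (ENSG00000128272) lies on chromosome 22 from 39519695 to 39522683, plus strand. PHGDH (ENSG00000092621, chromosome 1, 119648411 to 119744218, plus strand) and PSAT1 (ENSG00000135069, chromosome 9, 78297125 to 78330093, plus strand) lie apart. DDIT3 (ENSG00000175197, chromosome 12, 57516588 to 57521737, minus strand) and SHMT2 (ENSG00000182199, chromosome 12, 57229573 to 57234935, plus strand) are both on chromosome 12. TRIB3 (ENSG00000101255) is on chromosome 20 from 362835 to 397559, plus strand, and CHAC1 (ENSG00000128965) on chromosome 15 from 40952962 to 40956512, plus strand. SESN2 (ENSG00000130766) is on chromosome 1 from 28259518 to 28282491, plus strand, and SLC7A5 (ENSG00000103257) on chromosome 16 from 87830023 to 87869507, minus strand. ASNS (ENSG00000070669, chromosome 7, 97851677 to 97872542, minus strand) shares 49.3% of its exon bases with the long noncoding gene AC079781.5 on the same strand. Reads in shared exons cannot be assigned to 1 of these genes, so the single-cell level of ASNS is uncertain. AC079781.5 itself stood at 0.677 to 2.57 CPM. DDIT3 shares 8.03% of its exon bases with AC022506.1 on the same strand, which had 0 UMIs in each of the 8 single-cell libraries, and 27.2% with MARS1 on the opposite strand. In bulk AC022506.1 was listed at 141 TPM in SW480 and 255 TPM in SW620-TET2CD inside and at 0 in the other 4 libraries. It was given 0.42 to 6.34 expected counts per bulk library, few beside the 214 to 1125 of DDIT3. SHMT2 shares 0.719% with NDUFA4L2 on the opposite strand. No source used here states whether bulk reads were counted by strand, so reads of such opposite genes may be mixed in the bulk values.

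Did the response and the serine genes move as the colonies aged? Late libraries were compared with early libraries by edgeR's quasi-likelihood test (two-sided, line as a block, Benjamini-Hochberg adjustment over 16526 genes). Unless another is named, this test gave every single-cell adjusted p below, in some comparisons with another block or another number of genes. Of the 10 genes, 7 rose and 2 fell at an adjusted p of 0.05. Such calls were common, since 58% of all tested genes passed (29.4% higher and 28.6% lower). The median log2 fold change was 0.78 over the 10 genes and 0.036 over all tested genes. For 9 of the 10 genes the CPM of the 4 early and the 4 late libraries did not overlap, which was so for 52.3% of all tested genes (29.9% higher and 22.4% lower late). The transcription factors and effectors of the response rose, PHGDH rose, and PSAT1 and SLC7A5 fell.

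ATF4 stood at 134, 144, 206 and 233 CPM in SW620 on days 6, 9, 12 and 15, and at 136, 135, 181 and 217 CPM in SW620-TET2CD. All early values lay within 10 CPM of each other, below every late value. The log2 fold change was 0.50 (SE 0.12, adjusted p = 0.00433), with a ratio of late to early means of 1.58 in SW620 and 1.47 in SW620-TET2CD. DDIT3 went from 17.8 and 21.2 CPM on days 6 and 9 to 25.0 and 50.6 CPM on days 12 and 15 in SW620. In SW620-TET2CD it was at 19.3, 15.9, 31.8 and 31.2 CPM on the same days. Its rise of 0.81 on the log2 scale (SE 0.22, adjusted p = 0.00949) came with the highest value in SW620 on day 15, and without that library it was 0.50 (adjusted p = 0.0178).

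TRIB3 rose in SW620 from 34.4 and 51.1 to 72.2 and 114 CPM. In SW620-TET2CD the values were 29.3, 30.7, 90.1 and 62.1 CPM, so the 2 late days stood in opposite order in the lines (log2 fold change 1.15, SE 0.21, adjusted p = 0.001003). CHAC1 was near 2 CPM early in both lines, at 2.02 and 2.46 CPM in SW620 and 1.95 and 1.75 CPM in SW620-TET2CD. It then reached 4.89 and 15.0 CPM in SW620 and 3.47 and 10.1 CPM in SW620-TET2CD on days 12 and 15. Day 12 lay above the early values and day 15 further above them in both lines, and the log2 fold change was 1.92 (SE 0.39, adjusted p = 0.00198). SESN2 had 1.53, 2.79, 3.33 and 8.15 CPM in SW620 and 1.98, 2.14, 4.36 and 6.04 CPM in SW620-TET2CD, a log2 fold change of 1.29 (SE 0.30, adjusted p = 0.0043). ASNS rested on 27 to 181 UMIs per library, the fewest of the 10 genes. It was at 0.555, 0.643, 2.09 and 2.69 CPM in SW620 and at 0.364, 0.441, 1.37 and 3.55 CPM in SW620-TET2CD. Its log2 fold change of 2.19 (SE 0.30, adjusted p = 0.000183) was above that of the other 9 genes.

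In the single-cell libraries the serine genes did not move as 1 group. PHGDH was at 16.03, 16.4, 19.0 and 38.9 CPM in SW620 and at 13.0, 12.6, 18.6 and 27.4 CPM in SW620-TET2CD on days 6, 9, 12 and 15. In SW620 its log2 ratio was 0.21 from day 9 to 12 and 1.03 from day 12 to 15, and in SW620-TET2CD 0.57 and 0.56. The log2 fold change of late against early libraries was 0.75 (SE 0.22, adjusted p = 0.0143). Without the SW620 library of day 15 this fold change was 0.45 (adjusted p = 0.0405), and without the SW620-TET2CD library of that day 0.67 (adjusted p = 0.0521). PSAT1, the next enzyme of the same pathway, was lower late than early. It stood at 95.3, 60.3, 39.5 and 60.2 CPM in SW620 and at 82.1, 63.3, 40.4 and 47.6 CPM in SW620-TET2CD, lowest on day 12 in both lines. It fell with a log2 fold change of -0.78 (SE 0.20, adjusted p = 0.00636), although the day-15 value in SW620 came within 1 CPM of the lowest early value. SHMT2 ranged from 120 to 144 CPM early and from 143 to 184 CPM late, with overlap (log2 fold change 0.14, SE 0.13, adjusted p = 0.385). SLC7A5 was at 78.2, 65.5, 36.0 and 32.6 CPM in SW620 and at 70.6, 61.4, 39.6 and 32.9 CPM in SW620-TET2CD. It fell by day in both lines, with a log2 fold change of -1.07 (SE 0.13, adjusted p = 7.89e-05). Bulk SW620 went the other way for PSAT1 and SLC7A5. With both locations averaged, day 15 stood 2.99-fold and 2.30-fold above day 6, without replicates or a test.

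**Figure D1:**
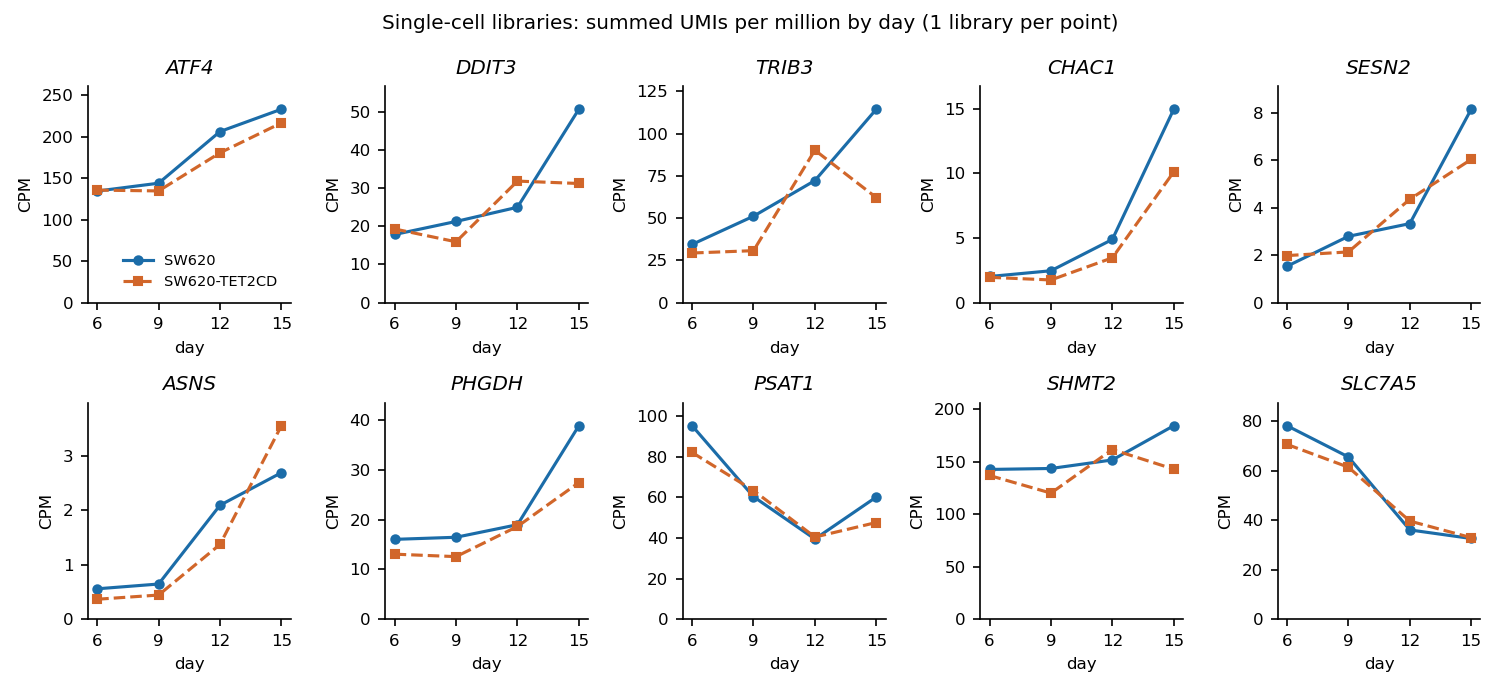
CPM of the 10 genes (vertical axis, from 0) against day (horizontal axis) in the single-cell libraries, with circles and solid lines for SW620, squares and dashed lines for SW620-TET2CD, and 1 library per point. ATF4 and its effectors lie higher on days 12 and 15, while SLC7A5 goes from 78.2 to 32.6 CPM in SW620 and PSAT1 is lowest on day 12.

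The share of dividing cells fell over the same days, so the comparison was repeated within cells that had no UMI of the division list after each cell was thinned to 2000 UMIs. There the same 7 genes rose and the same 2 fell, against 47.6% of 15209 tested genes called (24% higher and 23.6% lower). ATF4 had a log2 fold change of 0.79 (SE 0.12, adjusted p = 0.00033) in these cells, PSAT1 of -0.55 (SE 0.20, adjusted p = 0.0446) and SLC7A5 of -0.81 (SE 0.12, adjusted p = 0.000421). A cell with no division-list UMI at this depth may still have been cycling, so this comparison does not separate division from culture time. The part of low oxygen and of dissociation in these changes was not tested in it. Scaling by upper quartiles in place of TMM factors moved the median of all genes from 0.036 to 0.21 and the share of higher genes among those called from 50.7% to 63.2%. With it the 7 genes rose and the 2 fell as before, and SHMT2 also passed (log2 fold change 0.31, adjusted p = 0.0433).

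Day by day, the calls among the 10 genes in the fit of all libraries came after day 9. Values also moved before that. From day 6 to day 9 the log2 ratio in SW620 was 0.87 for SESN2 and 0.57 for TRIB3, against 0.11 and 0.067 in SW620-TET2CD. From day 6 to day 9 none of the 10 genes passed (153 of 16526 genes, 0.926%, did by edgeR's quasi-likelihood test, 0.569% higher and 0.357% lower). At an unadjusted p under 0.05 only PSAT1 did, which also passed without either library of day 15 (adjusted p = 0.0124 and 0.0122), with a log2 fold change of -0.54 (SE 0.16, adjusted p = 0.146), and by DESeq2 none passed. From day 9 to day 12, 3 genes rose and 2 fell, against 44% of all tested genes (21.4% higher and 22.6% lower). ASNS rose with a log2 fold change of 1.57 (SE 0.28, adjusted p = 0.00116), TRIB3 with 0.96 (SE 0.27, adjusted p = 0.0135, and 0.0756 by DESeq2) and CHAC1 with 0.88 (SE 0.20, adjusted p = 0.00461). In the same step SLC7A5 fell with -0.85 (SE 0.14, adjusted p = 0.00058) and PSAT1 with -0.74 (SE 0.17, adjusted p = 0.00425). Upper-quartile scaling called 9 of the 10 genes in this step, all but SHMT2, and 7578 of 16526 tested genes (4955 higher and 2623 lower). When 1 library was left out, the calls among the 10 genes and among all genes both moved. TRIB3 moved from 0.39 without SW620-TET2CD of day 12 (adjusted p = 0.214) to 1.45 without SW620 of day 12, and it also failed without SW620-TET2CD of day 9 (0.73, adjusted p = 0.147). ATF4 had a log2 fold change of 0.37 (SE 0.15, adjusted p = 0.0655), past the threshold by DESeq2 (adjusted p = 0.0426).

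From day 12 to day 15, 4 genes rose and none fell, against 13.7% of all tested genes (6.98% higher and 6.75% lower). CHAC1 had a log2 fold change of 1.62 (SE 0.19, adjusted p = 0.00137), SESN2 of 0.92 (SE 0.26, adjusted p = 0.0384), ASNS of 0.90 (SE 0.25, adjusted p = 0.0351, and 0.0555 by DESeq2) and PHGDH of 0.83 (SE 0.16, adjusted p = 0.0104). PSAT1 went up again without passing (log2 fold change 0.46, SE 0.17, adjusted p = 0.0876), and TRIB3 differed in sign between the lines (log2 ratio 0.66 in SW620 and -0.54 in SW620-TET2CD). Depth and the cells kept also differed between these days. Median UMIs per kept cell were 13110.5 in SW620 and 12379 in SW620-TET2CD on day 12, against 7127 and 8310.5 on day 15. Barcodes over the upper limits were 21.4% and 26.3% on day 12, against 1.54% and 5.83% on day 15. Their part in this step was not tested. The steps between days depend on single libraries. Without SW620-TET2CD of day 12 only CHAC1 and PHGDH passed in the last step, as they did without SW620 of day 9, and without SW620 of day 12 only CHAC1 passed. The number of all genes called went from 2269 to 285, 1402 and 1768 without these libraries, in that order.

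**Figure D2:**
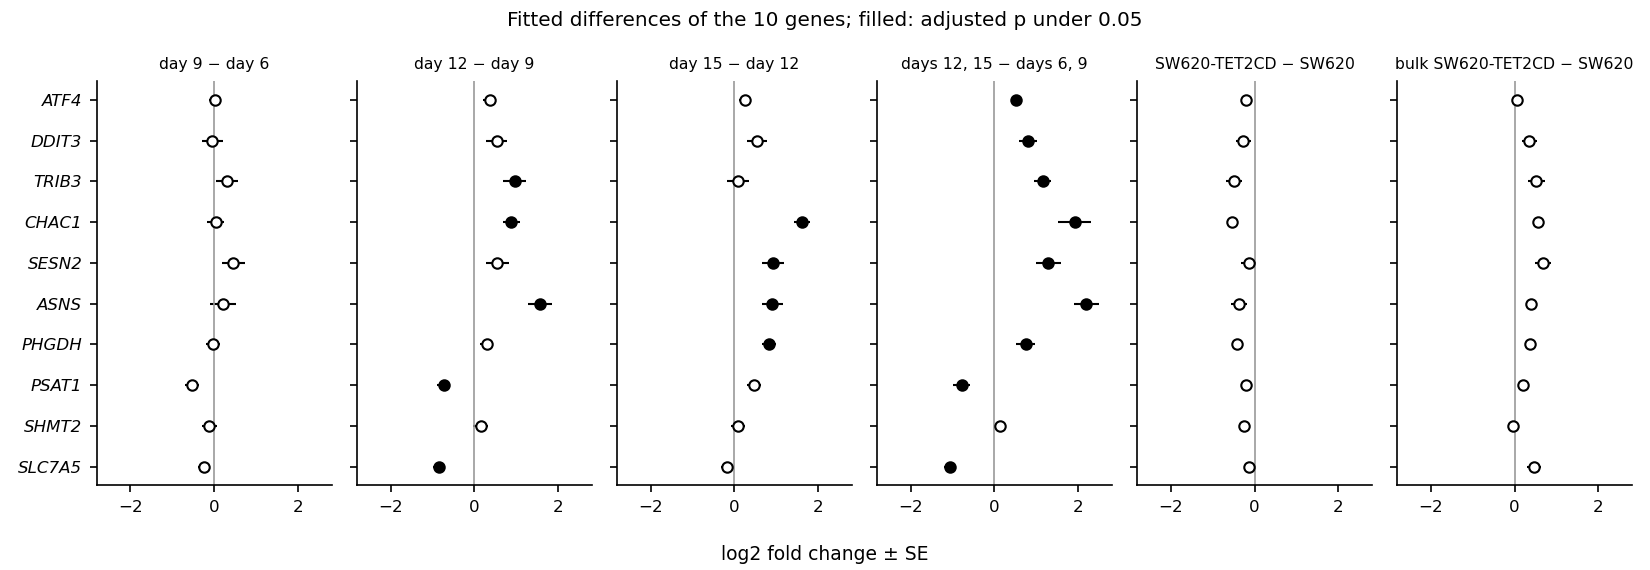
Fitted log2 fold change (horizontal axis) with its SE (bars) for the 10 genes (rows) in 6 comparisons, filled where the adjusted p was under 0.05. None is filled between days 6 and 9 or between the lines, and 9 are filled for late against early days.

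Other genes of the response were read from lists by role, and the lists differed. Beside 29.4% higher and 28.6% lower of all tested genes, 10 of the 15 tested other targets of ATF4 and CHOP rose late. Of this list 2 fell, and its median log2 fold change was 1.06. DDIT4, an mTORC1 inhibitor that low oxygen also induces, rose with a log2 fold change of 4.23 (SE 0.64, adjusted p = 0.000322). It went from 3.96 and 33.2 CPM to 168 and 277 CPM in SW620, and was the only gene of these lists that passed with at least 8 CPM from day 6 to day 9 (log2 fold change 2.40, adjusted p = 0.027). VEGFA, an angiogenic growth factor that also responds to low oxygen, had 3.25 (adjusted p = 7.5e-06) and the stress cytokine GDF15 1.91 (adjusted p = 9.3e-06). The low-oxygen list was also higher on the late days, and its part in the changes of these targets was not tested. ATF5, a transcription factor that ATF4 is known to induce, fell instead, with a log2 fold change of -1.64 (SE 0.17, adjusted p = 4.09e-05).

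Upstream, 5 of 18 genes for eIF2alpha kinases, eIF2, eIF2B and the phosphatase subunits rose and 9 fell (list median -0.34), beside 29.4% and 28.6% of all tested genes. EIF2AK3, the kinase PERK of the endoplasmic reticulum, rose from 2.02 to 2.59 CPM early to 3.40 to 5.04 CPM late (log2 fold change 0.65, SE 0.18, adjusted p = 0.00986). EIF2AK4, the kinase GCN2 that senses uncharged tRNA, fell (log2 fold change -0.54, SE 0.10, adjusted p = 0.00138). PPP1R15A, whose product GADD34 lets eIF2alpha be dephosphorylated, rose by 0.40 on the log2 scale (SE 0.11, adjusted p = 0.00832). EIF2B3 (-1.22), EIF2S1 (-1.16) and EIF2B1 (-1.05), subunits of eIF2B and eIF2, had the deepest falls among genes of this list with at least 8 CPM.

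Enzymes around the serine genes mostly went down. Beside 28.6% lower and 29.4% higher of all tested genes, 10 of 16 tested serine, glycine and folate enzymes fell and 1 rose (list median -0.62). Among them were TYMS (log2 fold change -2.76, adjusted p = 1.76e-05), which makes thymidylate, and SHMT1 (-1.91, adjusted p = 2.1e-05), the cytosolic counterpart of SHMT2. PSPH, the last enzyme of serine synthesis, had a log2 fold change of -0.13 (adjusted p = 0.49) and MTHFD2 of -0.14 (adjusted p = 0.467). Of 13 amino acid transporters 2 rose and 5 fell, beside 29.4% and 28.6% of all tested genes. The median of this list was -0.01, and -0.35 to 0.015 with 1 library left out. SLC7A11, the cystine importer, rose from 5.90 to 8.78 CPM early to 18.2 to 62.7 CPM late (log2 fold change 2.45, SE 0.37, adjusted p = 0.000336), and SLC38A2, a carrier of small neutral amino acids, rose by 1.08 (adjusted p = 0.00098). SLC3A2, the heavy chain that SLC7A5 and SLC7A11 both need, fell with -0.96 (SE 0.20, adjusted p = 0.00186).

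Several cytosolic tRNA synthetases are known ATF4 targets. Beside 28.6% lower and 29.4% higher of all tested genes, the list of 20 synthetases had 13 falls and no rise (median -0.50). FARSB (-1.38, adjusted p = 2.25e-05), VARS (-1.23, adjusted p = 2.89e-05) and FARSA (-1.22, adjusted p = 0.000174) fell most among those of at least 8 CPM. From day 12 to day 15, however, AARS, YARS and MARS of this list rose, with log2 fold changes of 0.76 (adjusted p = 0.0127), 0.59 (adjusted p = 0.0147) and 0.56 (adjusted p = 0.0288). Of 18 genes of the chaperone branch of the unfolded protein response 6 rose and 8 fell (list median -0.19), again beside 29.4% and 28.6% of all tested genes. DNAJB9, a cochaperone of the endoplasmic reticulum, rose with 1.79 (adjusted p = 3.86e-05), and XBP1 with 0.71 (adjusted p = 0.00314). CALR fell with -1.64 (adjusted p = 5.9e-05) and CRELD2 with -1.79 (adjusted p = 2.8e-05), while HSPA5, the chaperone BiP, had -0.23 (SE 0.12, adjusted p = 0.124). With upper-quartile scaling the median of the transporters turned from -0.01 to 0.16, the synthetases had 2 rises and 10 falls and the chaperone branch 7 of each, while the medians of the other lists kept their sign. Within cells with no division-list UMI the list medians were -0.39 for the serine, glycine and folate enzymes (8 of 15 fell and 1 rose), -0.33 for the synthetases (10 fell and 1 rose), -0.21 for the eIF2 genes (7 fell and 4 rose) and -0.11 for the chaperone branch (6 of each). The transporters had 0.05 there, with 2 rises and 5 falls, and the ATF4 and CHOP targets 1.09, with 9 rises and 3 falls. Of all 15209 genes tested in these cells, 24% were higher and 23.6% lower.

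**Figure D3:**
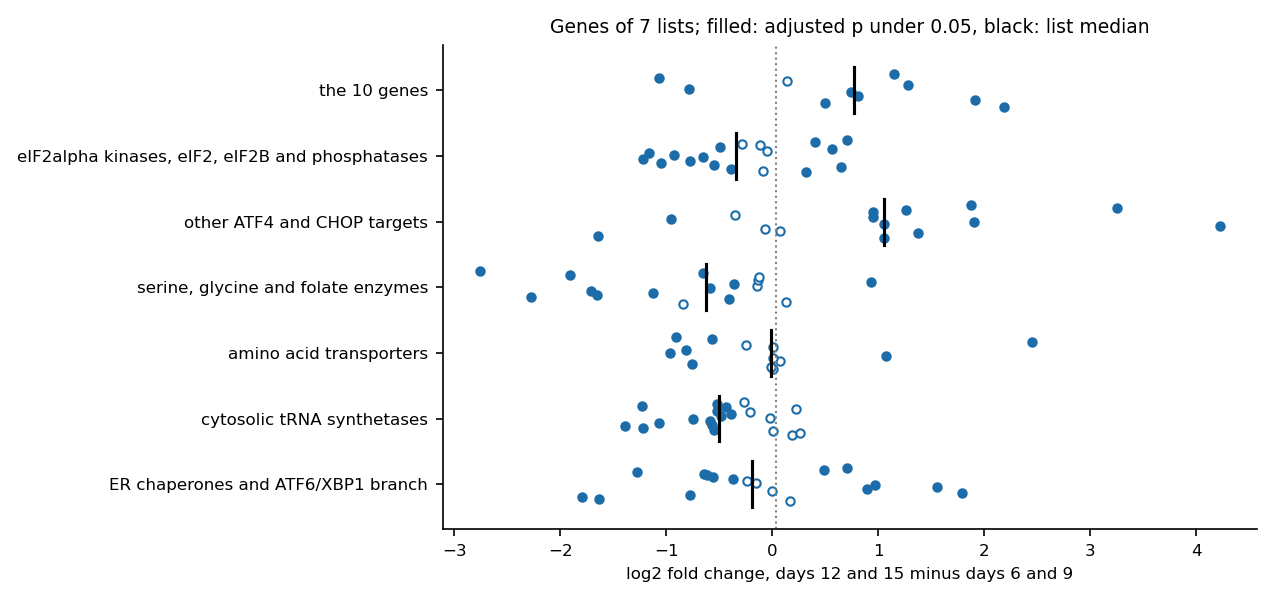
Log2 fold change of late against early libraries (horizontal axis) for the genes of 7 lists (rows), filled where the adjusted p was under 0.05, with list medians as black bars and the median of all tested genes as a dotted line. The 10 genes and the other ATF4 and CHOP targets lie mostly to the right (medians 0.78 and 1.06), the folate enzymes and tRNA synthetases mostly to the left (medians -0.62 and -0.50).

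The cells of a library were then split by the division list. After thinning to 2000 UMIs, cells with at least 2 division-list UMIs were called dividing, which were 56.5% to 68.7% of cells early and 5.73% to 13.9% late. Dividing cells were compared with the others of the same library (8 pairs, library as a block). Of the 10 genes 5 were higher in dividing cells, against 29% of 13849 tested genes called (13.7% higher and 15.3% lower). PHGDH was higher in dividing cells in 8 of 8 libraries (log2 fold change 0.63, SE 0.13, adjusted p = 0.00133). On days 12 and 15 its level was 35.7 and 71.7 CPM in dividing and 15.2 and 32.5 CPM in other cells of SW620, and 35.3 and 47.8 against 17.1 and 22.0 CPM in SW620-TET2CD. PSAT1 (log2 fold change 0.58, SE 0.11, adjusted p = 0.00105), SLC7A5 (0.38, SE 0.07, adjusted p = 0.000737) and SHMT2 (0.27, SE 0.06, adjusted p = 0.00409) were also higher in 8 of 8 libraries. CHAC1 was higher in 6 of 8 (0.56, SE 0.20, adjusted p = 0.0447), a call lost by DESeq2 (adjusted p = 0.0866), which called ATF4 instead (adjusted p = 0.0323). It was also lost with 1 division-list UMI as the limit, where the value was 0.18, and when any 1 of 6 libraries was left out, all but SW620 of day 9 and SW620-TET2CD of day 12 (adjusted p = 0.0193 and 0.0187 without these). ATF4 had 0.15 (SE 0.06, adjusted p = 0.0683) and passed without SW620-TET2CD of day 12 (0.22, adjusted p = 0.00767). DDIT3 had -0.05 (adjusted p = 0.774). TRIB3 had -0.11 (adjusted p = 0.273), but with 1 division-list UMI as the limit it was called lower in dividing cells (-0.19, adjusted p = 0.0133).

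The size of the difference varied between days. For PHGDH the log2 ratio of dividing to other cells was 0.43 and 0.0043 in SW620 on days 6 and 9 and 0.27 and 0.65 in SW620-TET2CD, against 1.05 to 1.23 on days 12 and 15. In SW620 on day 15, for example, PSAT1 was at 109 CPM in dividing and 56.0 CPM in other cells, and in SW620-TET2CD at 100 and 38.8 CPM. Dividing cells also had more UMIs before thinning than others in each library. Their dissociation list was lower in each library, at 2974 against 3881 CPM in SW620-TET2CD on day 12 for example, and their low-oxygen list was lower in each late library, at 454 against 722 CPM in SW620-TET2CD on day 15. The part of these differences in the result was not tested.

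The late libraries were split in another way, by whether a cell held more UMIs of the low-oxygen list than the median cell of its library (1 UMI in each of the 4 libraries). These cells, 29.7% to 44.9% of a late library, are called hypoxia-high here, a name for the list and not a measured oxygen level. None of the 10 genes is in that list. In hypoxia-high cells 3 genes were higher and 2 lower, against 26.2% of 12447 tested genes called in either direction, 14.1% higher and 12.1% lower (4 pairs, library as a block). DDIT3 was at 34.2, 45.7, 73.9 and 41.7 CPM in hypoxia-high cells and at 21.0, 26.4, 47.8 and 27.0 CPM in the others, in SW620 day 12, SW620-TET2CD day 12, SW620 day 15 and SW620-TET2CD day 15. Its log2 fold change was 0.70 (SE 0.09, adjusted p = 3.48e-07), higher in 4 of 4 libraries. TRIB3 was at 95.6, 137, 144 and 79.5 CPM against 59.9, 59.9, 109 and 57.6 CPM in the same order, with a log2 fold change of 0.68 (SE 0.09, adjusted p = 4.14e-07).

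ATF4 itself was higher by 0.19 (SE 0.06, adjusted p = 0.022) in 4 of 4 libraries, a call lost by DESeq2 (adjusted p = 0.0638) and without 3 of the 4 libraries, all but SW620 of day 15. PSAT1 was lower in 4 of 4 libraries (log2 fold change -0.54, SE 0.10, adjusted p = 9.57e-05) and SLC7A5 likewise (-0.39, SE 0.12, adjusted p = 0.0112, and 0.0957 by DESeq2). SLC7A5 also lost its call without SW620 of day 12 and without SW620-TET2CD of day 15. SESN2 was higher in 4 of 4 libraries without passing (0.43, SE 0.21, adjusted p = 0.122). PHGDH was higher in 2 of 4 (-0.21, SE 0.12, adjusted p = 0.223) and was called lower without SW620-TET2CD of day 12 (-0.36, adjusted p = 0.0218). CHAC1 was lower in 4 of 4 libraries without passing (-0.35, SE 0.17, adjusted p = 0.133). Its value depended on how cells were chosen, with -0.52 (adjusted p = 0.0442) when the split was made among late cells with no division-list UMI, an alternative added after the data were seen, and -0.065 (adjusted p = 0.871) with a stricter limit on the UMIs of the low-oxygen list. SHMT2 had 0.04 (SE 0.07, adjusted p = 0.744) in the split as first described. Among the lists, DDIT4 (1.42, adjusted p = 3.58e-13), VEGFA (1.32, adjusted p = 1.43e-14) and ERO1A (1.18, adjusted p = 3.69e-14), all known to respond to low oxygen as well, were higher. Hypoxia-high cells had a lower median UMI count before thinning in each late library (6399 to 11859 against 7501 to 13802), and their dissociation list summed to 3143 to 5076 CPM against 2747 to 4028 CPM. The part of these differences in the result was not tested.

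**Figure D4:**
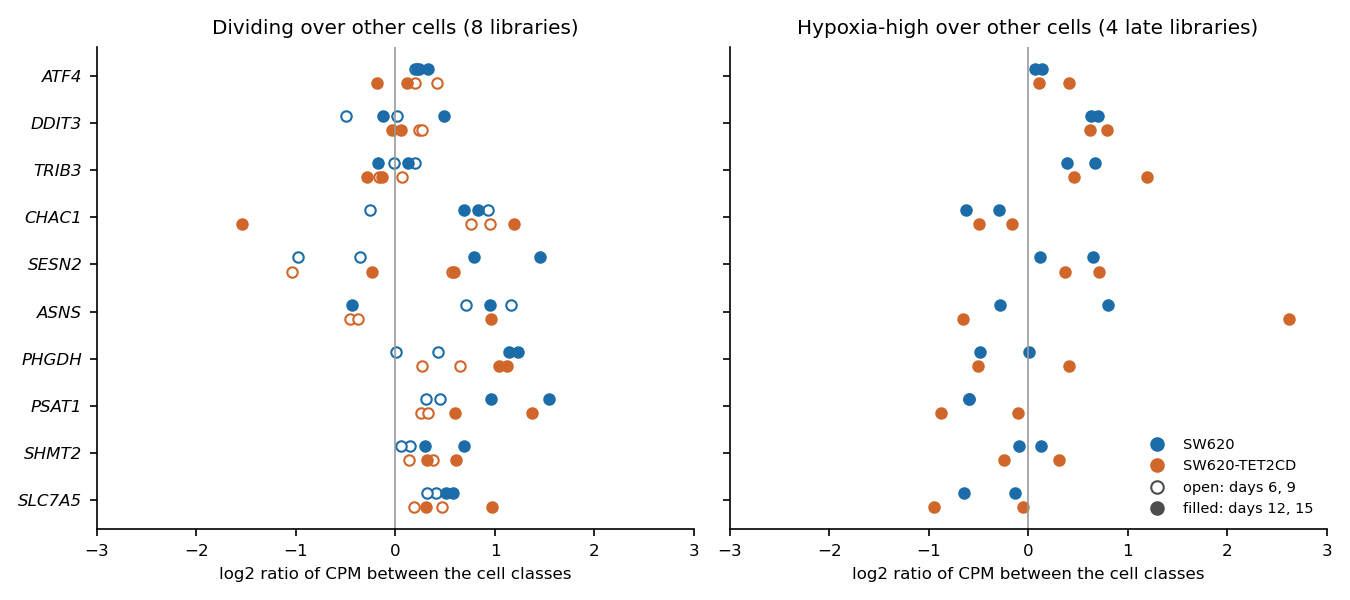
Log2 ratio of CPM between 2 classes of cells of the same library (horizontal axis) for the 10 genes (rows), dividing over other cells on the left and hypoxia-high over other late cells on the right, with 1 point per library, colour for the line and open points for days 6 and 9. PHGDH, PSAT1, SHMT2 and SLC7A5 lie right of 0 in 8 of 8 libraries on the left, and DDIT3 and TRIB3 in 4 of 4 on the right. ASNS in SW620-TET2CD on day 12 has no point on the left, since its dividing cells held no ASNS UMI.

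Did the TET2 catalytic domain change these genes? By the study's imaging, this domain lay mainly in the cytoplasm up to day 9. On days 12 and 15 it was nuclear in cells outside colonies but not inside. The TET2 level of SW620-TET2CD was 107, 59.5, 40.2 and 41.6 CPM on days 6, 9, 12 and 15. The comparison of the lines pools these days. With the day as a block, 0 of the 10 passed between SW620-TET2CD and SW620 in the single-cell data, against 4.21% of all tested genes (696 of 16526, with 2.37% higher and 1.85% lower). By DESeq2 the number was also 0, and at an unadjusted p under 0.05 it was 3, against 14.6% of all tested genes. All fitted values were below 0, with a median of -0.26 against -0.0035 over all genes. Without either library of day 15, SESN2 turned above 0 (0.092 and 0.086), DDIT3 came to -0.014 and -0.021 and TRIB3 to -0.24 and -0.25. CHAC1 came closest (log2 fold change -0.53, SE 0.14, adjusted p = 0.0591), followed by PHGDH (-0.41, SE 0.12, adjusted p = 0.0841), and both were lower in SW620-TET2CD on 4 of 4 days. TRIB3 had -0.49 (SE 0.19, adjusted p = 0.247) and was lower on 3 of 4 days. The other 7 genes had values of -0.38 to -0.13. The number of the 10 genes that were lower in SW620-TET2CD was 7 on day 6, 9 on day 9, 4 on day 12 and 8 on day 15. These counts come from CPM and are not set against a share of all genes.

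These calls sat near the threshold. Without either library of day 12, PHGDH and TRIB3 passed, without either library of day 6 CHAC1 did, and among cells with no division-list UMI PHGDH did (log2 fold change -0.51, SE 0.13, adjusted p = 0.0371). The change from early to late days did not differ detectably between the lines. No gene passed this test of line by time by edgeR or DESeq2 (130 and 113 genes at an unadjusted p under 0.05). The difference of the changes for the 10 genes was between -0.45 (CHAC1, SE 0.79) and 0.48 (ASNS, SE 0.61). With 1 library left out, CHAC1 ran from -1.34 to 0.68 and ASNS from -0.30 to 0.97. In the lists, GDF15 was lower in SW620-TET2CD (-0.56, SE 0.13, adjusted p = 0.0379), VEGFA too (-0.44, SE 0.10, adjusted p = 0.0245), and ATF5 was higher (0.56, SE 0.12, adjusted p = 0.0268).

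Bulk tables give TPM, which divides by transcript length and so allows levels of different genes to be compared. In bulk samples, fewer cells of a type and less RNA per cell cannot be told apart. In SW620 on day 6, SHMT2 (265 TPM) and ATF4 (344 TPM) were the most abundant of the 10 and SESN2 (2.32 TPM), CHAC1 (6.36 TPM) and PHGDH (8.48 TPM) the least. In the 4 libraries of day 15, ATF4 ranged from 649 to 714 TPM, SHMT2 from 611 to 658 TPM, TRIB3 from 205 to 380 TPM and PSAT1 from 241 to 322 TPM. PHGDH stood at 187 to 255 TPM, ASNS at 173 to 243 TPM and SLC7A5 at 173 to 312 TPM. DDIT3 (54.0 to 90.6 TPM), CHAC1 (35.5 to 64.9 TPM) and SESN2 (12.1 to 24.6 TPM) were the lowest.

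Cells outside the colonies were compared with cells inside (edgeR's quasi-likelihood test, line as a block, 17722 genes). None of the 10 genes passed and neither did any other gene (background 0%, with 1068 genes at an unadjusted p under 0.05 and 21 genes by DESeq2, none of them among the 10). Fitted log2 fold changes ran from -0.37 (DDIT3, SE 0.18) to 0.17 (CHAC1, SE 0.10). They moved when 1 library was left out and the line block dropped, to between -0.70 and -0.05 for DDIT3, between -0.77 and 0.14 for TRIB3 and between -0.15 and 0.44 for CHAC1, with no gene called. In SW620, ATF4 was at 649 TPM inside and 674 TPM outside, and PHGDH at 194 and 187 TPM. In SW620-TET2CD, TRIB3 was at 380 TPM inside and 247 TPM outside and DDIT3 at 90.6 and 60.3 TPM, while in SW620 they were at 205 and 210 TPM and at 58.5 and 54.0 TPM. The SW620-TET2CD libraries also differed in TET2, at 38.1 TPM inside and 124 TPM outside (1.15 and 1.29 TPM in SW620), and in the low-oxygen list, at 334 and 183 TPM, and the part of these differences was not tested. CHAC1 was higher outside in both lines, at 35.5 inside and 40.0 TPM outside in SW620 and 49.5 and 64.9 TPM in SW620-TET2CD. With 1 library per line and location, and 1 residual degree of freedom, these differences were not separable from the spread between libraries.

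Between the lines on day 15, 0 of the 10 genes passed in the bulk data, against 0.412% of all tested genes (73 of 17722, with 0.288% higher and 0.124% lower), and 0 also passed by DESeq2. Here 9 of the 10 fitted values were above 0, with a median of 0.38 against -0.00051 over all genes. Inside and outside the colonies, SESN2 was at 12.1 and 14.3 TPM in SW620 against 24.6 and 19.5 TPM in SW620-TET2CD (log2 fold change 0.68, SE 0.19, adjusted p = 0.159). CHAC1 had a log2 fold change of 0.55 (SE 0.10, adjusted p = 0.0986) and TRIB3 of 0.52 (SE 0.21, adjusted p = 0.261). At an unadjusted p under 0.05 there were 5 of the 10 genes and 20% of all tested genes. The result depended on single libraries and on the filter, since 6 of the 10 genes passed without the filter on low counts (2239 of 31544 tested genes did), 6 without SW620-TET2CD inside (4191 of 18664) and 6 without SW620-TET2CD outside (2950 of 18215). These were not the same 6, with SESN2, PHGDH, ASNS and CHAC1 in each set. Without either SW620 library 0 of the 10 genes passed. With 1 library left out, TRIB3 ran from 0.15 to 0.87 and DDIT3 from -0.0031 to 0.69. The single-cell libraries of day 15 mostly stood the other way, with 8 of the 10 genes lower in SW620-TET2CD, all but ASNS and SLC7A5, and with CHAC1 at 15.0 CPM in SW620 and 10.1 CPM in SW620-TET2CD and TRIB3 at 114 and 62.1 CPM. That count is not set against a share of all genes. Bulk and single-cell libraries differ in chemistry and in the cells taken, so no test was made across them. Of the other genes of the response, ATF5 had a bulk log2 fold change of 3.68 between the lines (SE 0.53, adjusted p = 0.0708) and PPP1R15A of 1.34 (SE 0.20, adjusted p = 0.0734). The libraries of the lines also differed in the division list, whose inside and outside values were 295 and 385 TPM in SW620 but 96.1 and 275 TPM in SW620-TET2CD. The low-oxygen list was at 142 and 127 against 334 and 183 TPM. Their part in the result was not tested.

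For time in bulk there was 1 SW620 library of day 6, a whole culture, so its comparison with day 15 had no replicate and no test. All of the 10 genes were higher in each of the 4 libraries of day 15 than in that library, as were 28.2% of the 15964 genes with a mean of at least 1 TPM. The division list was at 1178 TPM on day 6 and 96.1 to 385 TPM on day 15, and the epithelial markers at 11579 and 5826 to 7357 TPM, and their part in these differences was not tested. PHGDH stood at 8.48 TPM on day 6 and at 187 TPM or more on day 15, a 22.0-fold difference to the lowest value. ASNS went from 11.7 to at least 173 TPM (14.9-fold), TRIB3 from 34.1 to at least 205 TPM (5.99-fold), CHAC1 5.59-fold and SESN2 5.20-fold. ATF4 differed by 1.89-fold, from 344 to at least 649 TPM. PSAT1 was at 82.1 TPM on day 6 and 241 TPM or more on day 15, and SLC7A5 at 81.2 and 173 TPM or more, both higher on day 15. In the single-cell data of SW620 the same pair of genes was lower on day 15, PSAT1 at 95.3 and 60.2 CPM and SLC7A5 at 78.2 and 32.6 CPM on days 6 and 15. The PHGDH ratio between these days was 2.43 in the single-cell libraries of SW620 and 22.4 in bulk, with both locations averaged.

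SW480, the other line, had 1 library of day 6 and served for values only. PHGDH was at 135 TPM in SW480 and 8.48 TPM in SW620, a 15.96-fold difference, ASNS at 63.4 and 11.7 TPM (5.43-fold) and SLC7A5 at 325 and 81.2 TPM (4.01-fold). DDIT3 was 2.95-fold and TRIB3 2.03-fold higher in SW480. ATF4 (297 against 344 TPM) and CHAC1 (5.80 against 6.36 TPM) were slightly lower there. Apart from ATF4 and CHAC1, the 10 genes had their lowest bulk level in the day-6 library of SW620, as did 15.7% of the 15964 genes.

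**Figure D5:**
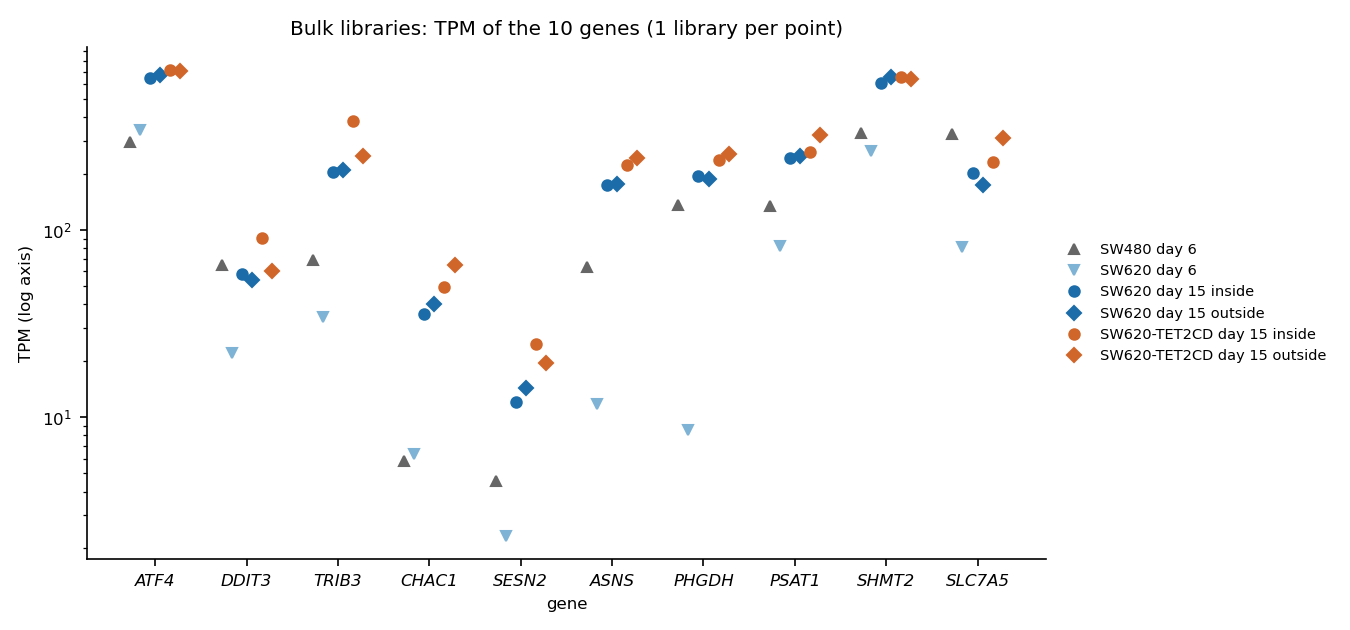
TPM of the 10 genes (vertical axis, log scale) in the 6 bulk libraries, with 1 library per point, grey and light blue triangles for day 6, circles for cells inside and diamonds for cells outside the colonies on day 15. PHGDH and ASNS of SW620 on day 6 (8.48 and 11.7 TPM) lie far below the libraries of day 15, and inside and outside lie close for most genes.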

How the data were processed

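Genes and gene lists were chosen with earlier results of these data known. For single cells the authors deposited counts (UMIs per gene and cell, 10x 3′ v3.1 chemistry, Cell Ranger 4.0, GRCh38), and for bulk samples the expected counts and TPM that the authors obtained with Bowtie and RSEM. The labels name a mouse build for bulk, although the deposited tables list human genes. No source used here mentions doublet removal before deposit, and no doublet caller was run.

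Kept cells (200 to 4500 genes, 1000 to 20000 UMIs, at most 10% mitochondrial UMIs) were summed per library. Classes were set on cells thinned to 2000 UMIs. Single-cell counts of 48186195 to 74185723 UMIs and rounded expected counts of 21234718 to 25854058 in the bulk libraries of day 15 were tested with edgeR 4.0.16 (filterByExpr, TMM, quasi-likelihood, two-sided, Benjamini-Hochberg) in R 4.3.3, with line, day, location or library as a block. CPM and TPM served for levels only. DESeq2 1.42.0, other scaling, no filter, other cell limits and leaving out each library were alternatives. The code was tested on simulated data. Besides the 10 genes, the text names up to 3 genes per list by size of change among those called with a mean of at least 8 CPM, plus a few regulators whatever their change. A gene that this rule picked is not reported here. Limits at 0 are 3 counts and, like UMI totals, cover counting error only. Python 3.11.15 read the matrices.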

Additional observations from a re-analysis of the deposited data

Results flagged for a closer look

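Among the 4 early single-cell libraries, ATF4 in SW620 on day 9 stood apart at 143.95 CPM, against 134.47 to 135.6 CPM in the others, a gap of 0.88 of the group's range. This was 1 of 20 groups examined in this way, and chance flags about 1 in 20. Other values stood out because the lines moved in opposite directions, and none of these differences was tested. In bulk, the log2 ratio of outside to inside was -0.33 for SESN2 in SW620-TET2CD and 0.25 in SW620, and 0.44 against -0.21 for SLC7A5. In the single-cell libraries, DDIT3 had a log2 ratio of day 9 to day 6 of -0.28 in SW620-TET2CD and 0.25 in SW620. TRIB3 had a log2 ratio of day 15 to day 12 of -0.54 in SW620-TET2CD and 0.66 in SW620.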

How the results depend on the processing

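For late against early days, 158 alternative values of the 10 genes kept their direction and their side of the threshold, while SHMT2 passed with upper-quartile scaling and PHGDH failed without SW620-TET2CD of day 15. No value of a called gene changed sign under any alternative run. Without the filter on low counts, the genes called between the lines rose to 1489, with 3 of the 10 genes, and without the day block they fell to 46. Every barcode gave 2 of the 10 genes between the lines and 980 of 17601 tested, and cells with no division-list UMI gave 1 and 529 of 15209. For day 9 against day 6, DESeq2 called 401 genes and no filter 978, with 1 of the 10 genes. For day 12 against day 9, upper-quartile scaling called 9 of the 10 genes and 7578 of 16526 tested. For line by time, no filter called 15 genes. For hypoxia-high cells, DESeq2 called 1505 genes and 3 of the 10. In bulk, outside against inside gave 21 genes by DESeq2 and 472 without the filter. The lines in bulk gave 709 genes by DESeq2, 2239 without the filter (6 of the 10 genes), 178 with upper-quartile scaling and 8 without the location block. The number of genes tested changed with the filter and the cells chosen. Counts given here without it are not set against a share of all tested genes. The cause of the differences between these runs was not tested.

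The filter on low counts was set anew in each fit, and the counts below are given without a share of all tested genes. Leaving out 1 library at a time gave 416 to 680 genes and 0 to 2 of the 10 between the lines, against 696 of 16526 genes and 0 of the 10 with all libraries. It gave 3 to 1261 genes (0 to 1 of the 10) from day 6 to 9, 3513 to 8944 (3 to 7) from day 9 to 12 and 285 to 3049 (1 to 5) from day 12 to 15. The lowest numbers of genes came without SW620 of day 6 or day 9, SW620 of day 9 and SW620-TET2CD of day 12, respectively, and the highest without SW620 of day 15. Hypoxia-high cells gave 1823 to 3049 genes (3 to 5 of the 10), lowest without SW620-TET2CD of day 15. The lines in bulk gave 0 to 4191 genes (0 to 6), with 0 without either SW620 library, 4191 without SW620-TET2CD inside and 2950 without SW620-TET2CD outside. In those fits of 3 libraries the location block was dropped and the lone library was assumed to vary like the others. No paired analysis was possible by replicate number because every group held 1 library numbered 1. Cell classes were compared within libraries, with library as the block, and the other fits had line, day or location as the block. ASNS, SESN2 and CHAC1 had the fewest UMIs of the 10 genes in the single-cell libraries. For ASNS, reads in exons shared with AC079781.5 could not be assigned, and the part of depth in its level was not tested.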
